A study of Mus musculus with 10 samples.

Results

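Genes of the synaptic vesicle fusion machinery were followed in RNA bound to tagged ribosomes of mouse striatum. They were chosen by symbol: synaptotagmins (Syt), syntaxins (Stx), syntaxin-binding proteins (Stxbp), vesicle-associated membrane proteins (Vamp), SNAP family genes (Snap), synapsins (Syn), RIM proteins (Rims) and complexins (Cplx) followed by a digit, together with Sv2a to Sv2c and Unc13a to Unc13d. This took in 70 of the 32531 genes counted. The symbol rule itself uses no measured value, but the genes, and the marker and partner lists, were chosen with earlier results of these data known. It also took in Snap91, which encodes the clathrin adaptor AP180 and is no SNARE.

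Transmitter release needs SNARE proteins, which sit on the vesicle (the VAMPs) and on the plasma membrane (syntaxins and SNAP25 relatives) and zip together to pull both membranes into contact. Munc18 proteins, of the syntaxin-binding group, hold syntaxin, while Munc13 proteins (Unc13 genes) and RIM proteins prime vesicles at the active zone. Complexins clamp and assist the assembled complex, and synaptotagmins bind calcium or phospholipid and trigger or tune fusion. Other syntaxins and VAMPs serve the Golgi, endosomes and endoplasmic reticulum of all cells. Medium spiny neurons are the GABA-releasing projection neurons of the striatum, and those with dopamine D1 receptors send their axons to the midbrain and to the internal segment of the globus pallidus.

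All mice were adult and of the Drd1-TRAP line CP73, in which ribosomal protein L10a fused to EGFP (EGFP/Rpl10a) is made under the Drd1 promoter. The founding background was FVB/N-Swiss Webster x C57BL/6, crossed to C57BL/6 for 9 generations or more. Tagged polysomes of the whole striatum were captured with antibodies against EGFP in a study of short-access intravenous cocaine self-administration. There were 3 pull-down libraries from mice self-administering saline, 3 from mice self-administering cocaine and 3 from yoked controls, plus 1 input library of total striatal RNA whose treatment is not given in the sources used here. What the yoked mice received, and whether libraries of 1 group came from separate animals, are not given there either, so each p-value reflects the scatter of these libraries alone, and that scatter may be technical. The promoter limits the tagged cells to those expressing Drd1. RNA of untagged cells, bound to beads or free, can still be present in a pull-down.

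Values are counts per 1e+06 gene counts (CPM). In units of 1e+06, pull-downs held 12.5 to 45.2 gene counts and the input 40.5, so that 3 counts, taken as the floor of detection, correspond to 0.0663 to 0.239 CPM. This floor covers counting error only. The labelled cell class was checked with marker genes: all 9 markers of D1 medium spiny neurons were above the input in each of the 9 pull-downs, with a median ratio of 2.27, and Drd1 itself had a ratio of 2.07. Median ratios were 0.154 for 6 markers of D2 medium spiny neurons, 0.187 for 8 astrocyte markers, 0.165 for 7 oligodendrocyte markers, 0.179 for 8 microglial markers and 0.255 for 7 interneuron markers. The median of 6 cortical glutamatergic markers was 2.03, but 0 of the 6 were above the input in each of the 9 pull-downs. Pituitary growth hormone (Gh) stood at 2356 CPM in the input and 340 CPM in the library saline 1, and at 3.28 CPM or less in the other 8 pull-downs. The library yoked 3 was highest or lowest of the 9 for 49.4% of all genes tested. Per the labels, saline libraries ran on lane 3, cocaine on lane 1, yoked on lane 2 and the input on lane 5, and effects of lane and of group therefore cannot be told apart. In these bulk samples, fewer cells of a type and less RNA per cell cannot be told apart either.

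Of the 70 genes, 62 had counts enough for testing. The other 8 were Cplx4, Stx11, Stx19, Stxbp3b, Syt8, Unc13d, Vamp5 and Vamp7. Syt8 and Vamp7 were listed at 0 counts in all 10 libraries, and the remaining 6 had between 1 (Stx19) and 18 (Vamp5) counts summed over the 9 pull-downs. Whether the 0 counts of Syt8 and Vamp7 reflect absent RNA or a gap in the counting was not tested. The 70 genes lie on 19 chromosomes, and 14 of them overlap the span of another counted gene. Near-identical copies and overlapping genes can share reads, and Syn1 (Araf and Timp1), Syn2 (Timp4), Syn3 (Timp3) and Snap47 (Jmjd4) are among the overlapping ones. Transcript lengths were not used here, so that a level is never compared between genes, only between libraries for 1 gene.

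RefSeq promoter windows were at hand for 51 of the 70 genes. Windows of 5 genes are printed because they belong to genes whose mean lay above the input (Stx1a in 9 and Unc13a in 7 of 9 pull-downs) or below it in each (Snap23 and Unc13b), chosen after the ratios were known, or carry a known neuronal control element (Syn1). Each is the 250 bases before the start that the window table gives, 5' to 3' on the gene's strand, build GRCm38.p6, with matches to the motifs searched in capitals. Motifs were searched on both strands: the left block of the RE1 element bound by the repressor REST (TTCAGCACC), the cyclic AMP response element (TGACGTCA), the GC box (GGGCGG), an E-box (CACGTG) and the TATA box (TATAAA). The windows lie at chr5:135023232-135023481 (Stx1a, plus strand), chr2:120567421-120567670 (Snap23, plus), chr8:71671758-71672007 (Unc13a, minus), chr4:43058703-43058952 (Unc13b, plus, inside the gene's span, at an internal start) and chrX:20920919-20921168 (Syn1, minus). The Snap23 and Unc13a windows also run slightly into the annotated span of the gene.
Stx1a: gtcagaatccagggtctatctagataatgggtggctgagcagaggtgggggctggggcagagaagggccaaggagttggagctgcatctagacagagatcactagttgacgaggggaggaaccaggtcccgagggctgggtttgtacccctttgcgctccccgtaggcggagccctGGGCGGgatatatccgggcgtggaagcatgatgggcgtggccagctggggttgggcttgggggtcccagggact
Unc13a: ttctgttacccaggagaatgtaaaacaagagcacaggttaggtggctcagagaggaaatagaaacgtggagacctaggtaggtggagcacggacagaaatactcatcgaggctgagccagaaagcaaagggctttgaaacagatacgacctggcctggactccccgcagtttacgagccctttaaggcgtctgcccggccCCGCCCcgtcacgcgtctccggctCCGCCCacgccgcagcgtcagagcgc
Snap23: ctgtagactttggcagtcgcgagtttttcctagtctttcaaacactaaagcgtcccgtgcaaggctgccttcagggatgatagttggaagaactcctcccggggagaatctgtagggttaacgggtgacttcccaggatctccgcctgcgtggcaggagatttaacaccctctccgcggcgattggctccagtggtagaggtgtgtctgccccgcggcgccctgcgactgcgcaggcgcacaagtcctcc
Unc13b: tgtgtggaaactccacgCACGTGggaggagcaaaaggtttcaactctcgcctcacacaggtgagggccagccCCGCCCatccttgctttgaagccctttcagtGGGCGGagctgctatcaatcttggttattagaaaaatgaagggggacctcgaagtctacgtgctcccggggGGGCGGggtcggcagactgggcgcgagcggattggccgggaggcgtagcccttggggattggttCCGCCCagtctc
Syn1: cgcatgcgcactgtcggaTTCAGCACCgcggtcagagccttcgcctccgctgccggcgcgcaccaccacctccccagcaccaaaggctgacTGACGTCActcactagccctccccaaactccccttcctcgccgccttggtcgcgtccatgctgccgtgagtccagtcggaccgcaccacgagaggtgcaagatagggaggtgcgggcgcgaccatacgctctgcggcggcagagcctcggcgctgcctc

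The REST element block and the cyclic AMP element both appeared in the Syn1 window, 223 and 151 bases before the start, and in the window of no other gene of the 51. Across all 32851 windows in the RefSeq table they appeared in 0.301% and 1.55%. GC boxes were found in 36 of the 51 genes and in 59.1% of their 66 windows, against 32.7% of all windows. The Stx1a window held 1, the Unc13a window 2 and the Unc13b window 4, while the Snap23 and Syn1 windows held none. The E-box was in windows of 8 genes (13.6% of windows against 6.02% of all) and the TATA box in windows of 3 genes (6.06% against 12.4%). Median GC content was 60.6% against 52.4%, and the median number of CpG dinucleotides was 14 against 6. GC box matches occurred both in genes above the input and in genes below it.

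The pull-downs were set against the input to show how far RNA of each gene was found on ribosomes of Drd1-expressing cells. The ratio is (CPM + 0.5) in a pull-down over (CPM + 0.5) in the input, and with 1 input it carries no test. At least 2-fold in the same direction in each of 9 pull-downs was counted as past 2-fold. One gene was past 2-fold above (Syt5), which is 1 of 62 against 3.1% of 15438 genes, and 5 were past 2-fold below (Snap23, Stx2, Syt14, Vamp1 and Vamp3), against 11.8% of all genes. Above the input by any amount in each of 9 were 19 of 62 genes (27.1% of all genes), 22 were below it in each (36.6% of all genes), and 21 lay on both sides. The median log2 ratio was -0.04 over the 62 genes and -0.09 over all genes. As linear ratios these medians were 0.976 and 0.937, while single fusion genes ranged from a log2 ratio of -2.47 to 1.41.

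**Figure D1:**
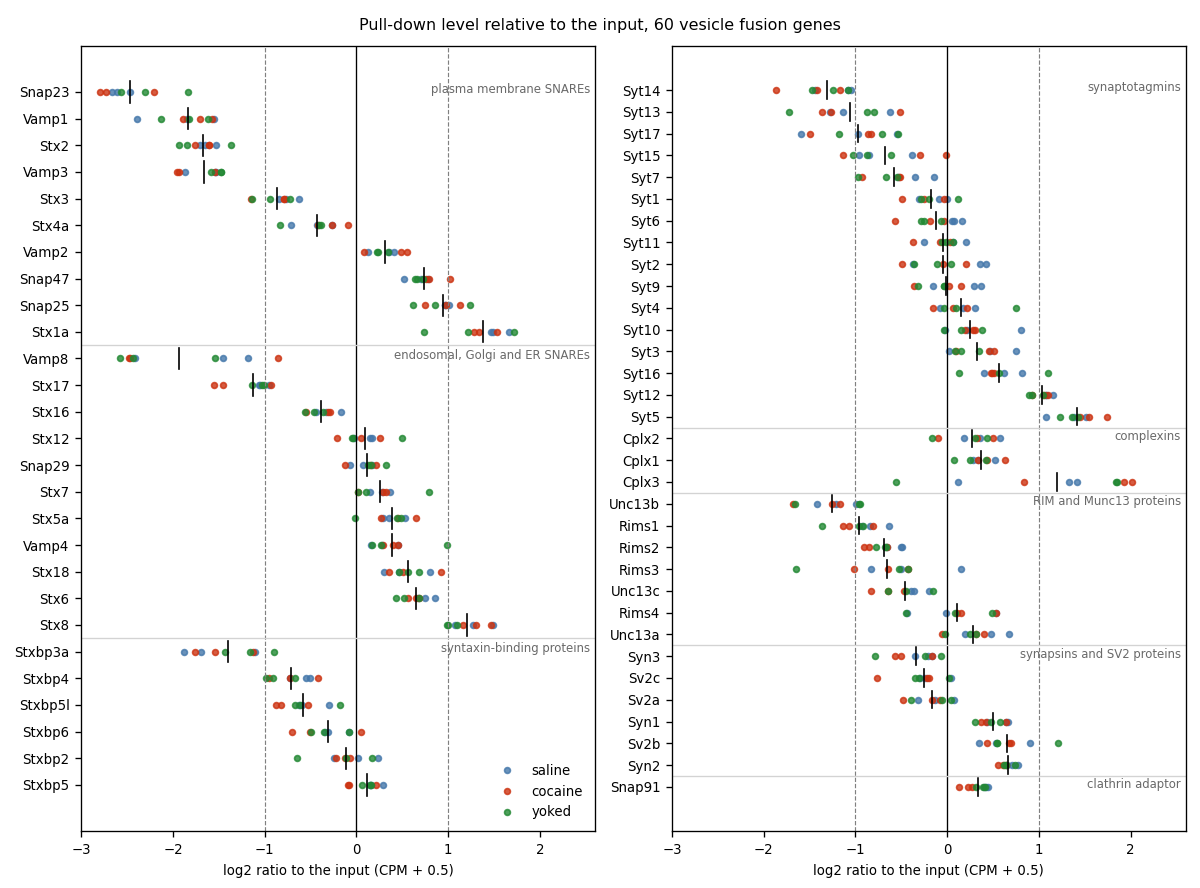
Log2 ratio of each pull-down to the input (CPM + 0.5) for 60 of the 62 tested genes, by role, 1 point per library coloured by group, black ticks marking the mean of 9 and dashed lines 2-fold. Snap23 has the lowest mean at -2.47 and Syt5 the highest at 1.41, and the 3 colours intermix in most rows.

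SNAREs of fusion at the plasma membrane were split: of 11 genes, 4 were above the input in each pull-down (Snap25, Snap47, Stx1a and Vamp2) and 6 were below in each (Snap23, Stx2, Stx3, Stx4a, Vamp1 and Vamp3). Snap25 (chr2:136713439-136782428), the neuronal plasma membrane SNARE cleaved by botulinum toxin A, was at 8415, 8162 and 8191 CPM in the saline libraries, 9131, 8215 and 7022 in the cocaine libraries and 7558, 6408 and 9848 in the yoked libraries, against 4183 in the input. Each pull-down exceeded the input, by 1.53 to 2.35 times, and the 3 groups overlapped. Vamp2 (chr11:69088528-69092381), or synaptobrevin-2, the main vesicle SNARE of forebrain synapses, stood at 2093, 2011 and 1712 CPM (saline), 2209, 2300 and 1659 (cocaine) and 1989, 1846 and 1831 (yoked) against 1571 in the input. Its ratio was 1.24, and the highest and the lowest library were both from the cocaine group. Stx1a, which encodes the plasma membrane partner of SNAP25, had the largest mean ratio of the role at 2.61 (1.66 to 3.29), with 17.6 to 35.2 CPM in pull-downs and 10.4 in the input.

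The 4 SNAREs past 2-fold below the input are relatives of these genes. Snap23 (chr2:120567655-120601255), the broadly expressed relative of Snap25, was at 2.6, 2.71 and 3.04 CPM (saline), 3.74, 2.45 and 2.33 (cocaine) and 2.82, 3.47 and 5.0 (yoked), against 19.1 in the input. It was the gene furthest below the input, 5.52-fold, and its highest pull-down was yoked 3. Vamp1 (chr6:125215581-125222306), synaptobrevin-1 of motor and brainstem synapses, had 19.1, 15.5 and 10.4 CPM (saline), 18.8, 17.1 and 15.0 (cocaine) and 18.3, 15.7 and 12.7 (yoked), against 57.0 in the input. Its mean lay 3.57-fold below, with the library numbered 3 lowest in each group. Vamp3 (chr4:151047305-151057953), or cellubrevin, the VAMP of recycling endosomes in many cell types including glia, had 15.0, 19.2 and 19.0 CPM (saline), 14.4, 19.0 and 14.1 (cocaine) and 18.4, 20.0 and 20.0 (yoked), against 56.4 in the input. Stx2 (chr5:128984557-129008600), a broadly expressed syntaxin, had 2.04, 1.76 and 1.84 CPM (saline), 1.92, 1.91 and 1.68 (cocaine) and 2.36, 1.42 and 1.55 (yoked), against 6.86 in the input. Groups overlapped for both genes, which lay 3.16-fold and 3.18-fold below the input. Markers of astrocytes, oligodendrocytes and microglia were below the input as well, with the medians given above, and their part in these ratios was not tested.

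Among related genes the balance between copies therefore differed between pull-downs and input. The ratio of Snap25 to Snap23 counts was 219 in the input and 1848 to 3349 in the pull-downs, a 12.1-fold shift of the mean. Vamp2 over Vamp1 went from 27.6 in the input to 109 to 164, 4.54-fold, and Vamp2 over Vamp3 shifted 3.99-fold. Shifts were 3.05-fold for Unc13a over Unc13b, 2.0-fold for Syn2 over Syn3 and 1.88-fold for Sv2b over Sv2c. For these 6 pairs each of the 9 pull-downs lay above the input. The exception among the 7 pairs described was Cplx1 over Cplx2, which was 0.284 in the input and 0.273 to 0.381 in the pull-downs, above the input in 5 of 9. A ratio of this kind is one of counts, so its change between libraries can be read but not its size. The pairs were picked after the ratios to the input had been seen, and the shifts are descriptions.

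**Figure D2:**
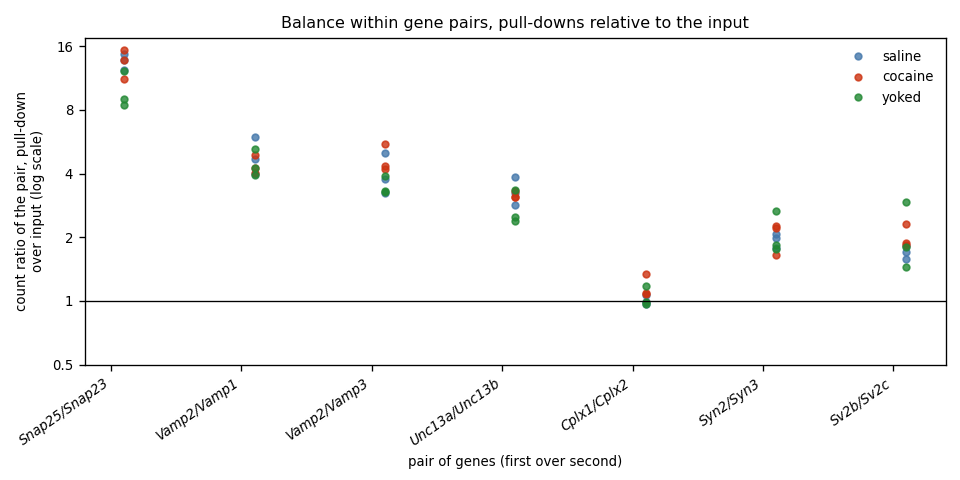
Count ratio of 7 gene pairs in each pull-down divided by the same ratio in the input (log axis), coloured by group. Snap25 over Snap23 sits highest with a mean shift of 12.1-fold, and Cplx1 over Cplx2 sits around 1.

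Golgi, endosomal and endoplasmic reticulum SNAREs had a median ratio of 1.2 over 11 genes, with 5 above and 3 below the input in each pull-down. Vamp4, which serves traffic between endosomes and the Golgi, was at 144, 163 and 132 CPM (saline), 162, 157 and 145 (cocaine) and 143, 133 and 236 (yoked), against 118 in the input. The library yoked 3 stood alone at the top. Stx12, a syntaxin of recycling endosomes, had 147, 149 and 130 CPM (saline), 158, 138 and 114 (cocaine) and 128, 129 and 187 (yoked), against 133, again with yoked 3 highest. Stx8, a late endosomal syntaxin, had the largest ratio of the role, 2.30 (1.98 to 2.80), so that 1 library kept it short of 2-fold in each. Stx17, which acts in the fusion of autophagosomes with lysosomes, lay 2.19-fold below the input on average and Stx16 1.31-fold below. Vamp8, a SNARE of endosomes and of secretion in non-neuronal cells, was near the floor in most pull-downs (0.0221 to 1.22 CPM) against 2.62 in the input. Its 4 libraries above 0.5 CPM were saline 1, saline 2, cocaine 1 and yoked 2.

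Syntaxin-binding genes had a median ratio of 0.80 over 7 genes. Stxbp5l, which encodes tomosyn-2, an inhibitor of SNARE assembly, had 217, 212 and 265 CPM (saline), 227, 177 and 185 (cocaine) and 205, 213 and 289 (yoked), against 327. Stxbp3a, the Munc18 form of non-neuronal traffic, lay 2.64-fold below the input and Stxbp4 1.64-fold below, each in 9 of 9 pull-downs. Tomosyn-1 (Stxbp5), by contrast with its relative, had a ratio of 1.08 and lay above the input in 7 of 9.

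For vesicle priming, the 7 tested RIM and Munc13 genes had the lowest median ratio of the roles, 0.64, with 4 below the input in each pull-down and none above in each. Unc13a, or Munc13-1, the main priming factor of forebrain synapses, was at 161, 133 and 186 CPM (saline), 144, 112 and 154 (cocaine) and 138, 145 and 114 (yoked), against 116 in the input, and was above it in 7 of 9. Its relatives were below the input in each pull-down. Unc13c, or Munc13-3, had 158, 176 and 153 CPM (saline), 146, 129 and 113 (cocaine) and 149, 182 and 129 (yoked), against 202. Unc13b, or Munc13-2, lay at 4.52 to 7.81 CPM against 15.5, which is 2.39-fold below on average. Rims1 and Rims2, the scaffold proteins that link vesicles to calcium channels, lay 1.95-fold and 1.61-fold below the input in 9 of 9 pull-downs. Unc13a overlaps Colgalt1 and Unc13b overlaps Fam214b, so that reads of these neighbours may enter their counts.

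Complexins were above the input on average, with a median ratio of 1.29 over 3 genes. Cplx1 had 721, 635 and 612 CPM (saline), 778, 678 and 633 (cocaine) and 675, 600 and 532 (yoked), against 503, above it in 9 of 9. Cplx2 was at 2639, 2272 and 2020 CPM (saline), 2517, 2222 and 1661 (cocaine) and 2401, 2190 and 1587 (yoked), against 1774. Within each group the library numbered 3 was the lowest for both genes. Cplx3, best known from ribbon synapses of the retina, varied most among genes above 5 CPM, with 2.46, 6.78 and 6.33 CPM (saline), 9.85, 4.37 and 10.5 (cocaine) and 9.32, 1.35 and 9.24 (yoked), against 2.22. Its lowest libraries were saline 1 and yoked 2. The same 2 libraries had the lowest mean log2 level of the 6 cortical glutamatergic markers, with ranges of 2.02 to 3.35 in saline, 3.30 to 3.67 in cocaine and 1.95 to 3.87 in yoked libraries and none of the 6 at 0. The part of those cells in the Cplx3 level was not tested.

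Synaptotagmins, the largest family with 16 tested genes, had a median ratio of 0.97, with 4 above and 5 below the input in each pull-down. Syt1 (chr10:108497650-109010980), the calcium sensor for fast release at most forebrain synapses, was at 677, 584 and 724 CPM (saline), 706, 514 and 605 (cocaine) and 629, 595 and 786 (yoked), against 723 in the input. It did not stand apart from the input in either direction. Syt5 (chr7:4539765-4547541), a calcium-binding relative of Syt1, was at 116, 93.5 and 127 CPM (saline), 121, 130 and 149 (cocaine) and 115, 105 and 120 (yoked), against 44.1, which gives ratios of 2.11 to 3.35. It was the fusion gene furthest above the input. Syt12, a synaptotagmin that does not bind calcium, was at 18.3 to 22 CPM against 9.62, a ratio of 2.04 with the small coefficient of variation (CV) of 6.45%. Syt14 (chr1:192882653-193035871), another form that does not bind calcium, had 55.7, 43.2 and 56.8 CPM (saline), 52.2, 32.0 and 43.9 (cocaine) and 49.4, 42.3 and 55.7 (yoked), against 118, and lay 2.48-fold below the input. Syt7, the slow, high-affinity calcium sensor of facilitation and asynchronous release, was below the input in each pull-down with a ratio of 0.67, and Syt2, the fast sensor of hindbrain and fast-spiking interneuron synapses, was near it at 0.97 (above in 4 of 9).

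The 6 synapsin and SV2 genes had a median ratio of 1.12, with 3 above and 1 below the input in each pull-down. Syn1 (chrX:20860511-20920918), a phosphoprotein that tethers vesicles in the reserve pool, had 472, 409 and 477 CPM (saline), 472, 391 and 405 (cocaine) and 450, 421 and 374 (yoked), against 302. Syn2 had a ratio of 1.58 and the smallest CV of the 62 genes, 4.95%, while Syn3 was below the input in each pull-down with a ratio of 0.79. Sv2b, a vesicle glycoprotein and toxin receptor, had 238, 209 and 308 CPM (saline), 263, 222 and 267 (cocaine) and 240, 239 and 380 (yoked), against 164, with yoked 3 far above the rest. Sv2a (ratio 0.89) and Sv2c (0.84), the SV2 form known from the basal ganglia, were each above the input in 2 of 9. The clathrin adaptor gene Snap91 was at 256, 261 and 264 CPM (saline), 233, 212 and 227 (cocaine) and 257, 254 and 242 (yoked), against 194.

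**Figure D3:**
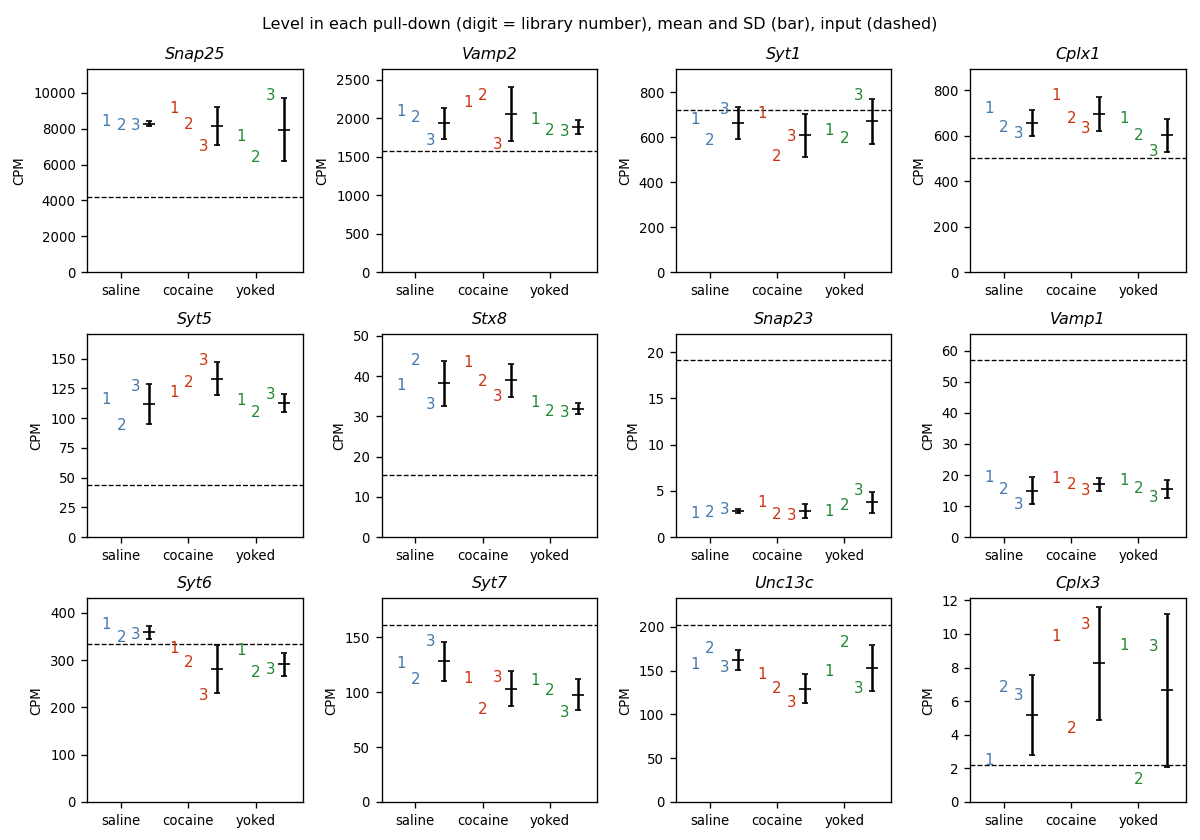
Level in CPM of 12 genes in each pull-down, drawn as the library number, with the group mean and SD (n = 3) as a bar and the input as a dashed line. Snap25, Vamp2, Cplx1, Syt5 and Stx8 lie above the input in all 9 libraries, Snap23, Vamp1, Syt7 and Unc13c below it in all 9, and the groups overlap in most panels.

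Cocaine self-administration was compared with saline self-administration to ask whether fusion genes differ with the drug in D1 neurons. No fusion gene passed an adjusted p under 0.05 in edgeR (quasi-likelihood test, Benjamini-Hochberg over 14680 genes) (0 of 62, with 0% of all genes called), nor in DESeq2 or limma-voom. At an unadjusted p under 0.05 there was 1 of 62 (Syt6), against 2.84% of all genes in the same test, and DESeq2 and limma-voom gave 1 each. The median log2 fold change was -0.06 over the 62 genes and 0.00 over all genes. Lower in cocaine were 39 of 62 genes (49.4% of all genes) and 23 were higher (50.6%). But without the library saline 3 the count higher was 33, and without the 3 libraries numbered 3 it was 34. Counts from DESeq2, limma-voom and the fits without libraries have no share over all genes beside them.

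Syt6, a synaptotagmin of the group with a disulfide-linked amino terminus, had the smallest p of the comparison. It was at 374, 348 and 353 CPM in saline and 325, 294 and 226 in cocaine, against 334 in the input, so that all 3 cocaine libraries lay below all 3 saline libraries, and cocaine 3 was far lower than the rest. The log2 fold change was -0.30 ± 0.14 (SE, n = 3 per group) with an unadjusted p of 0.0465 and a Benjamini-Hochberg adjusted p of 0.999 in edgeR. Without the library cocaine 3 it was -0.18 (unadjusted p 0.19 in edgeR), and without the 3 libraries numbered 3 it was -0.16. For the priming factor Unc13c (saline 153 to 176 CPM, cocaine 113 to 146, no overlap) the log2 fold change was -0.27 ± 0.14 (SE) with an adjusted p of 0.999 in edgeR. Syt5 (saline 93.5 to 127 CPM, cocaine 121 to 149, overlapping) was on the other side at 0.31 ± 0.16 on the log2 scale (SE), with an adjusted p of 0.999 in edgeR, and at 0.19 without saline 2 as well as without cocaine 3. Snap47, a SNAP25 relative of less certain function, was at 133, 141 and 117 CPM in saline, 141, 138 and 167 in cocaine, 136, 128 and 130 in yoked libraries and 81.8 in the input. The library cocaine 3 stood above the rest, and the log2 fold change was 0.25 ± 0.13 (SE) with an adjusted p of 0.999 in edgeR. It was 0.13 without cocaine 3 and 0.09 without the 3 libraries numbered 3. Groups did not overlap for 4 genes lower in cocaine (Syt6, Unc13c, Snap91 and Syn2), against 7.31% of all genes, and for 0 genes higher, against 3.76%, which is 4 of 62 either way against 11.1%. With TMM-scaled CPM these counts were 4 and 1, and Rims2 and Snap47 appeared while Syn2 did not. The share over all genes was not computed for TMM-scaled CPM, so these counts have no background beside them.

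Against the yoked controls, whose own treatment is not given, cocaine libraries again showed no called fusion gene (0 of 62 in edgeR, DESeq2 and limma-voom, 0% of all genes in edgeR). Unadjusted p under 0.05 was reached by 0 of 62 in edgeR, against 2.58% of all genes, by 0 in DESeq2 and by 1 in limma-voom. The median log2 fold change was 0.04 and that of all genes -0.03, with 35 genes higher (45.5% of all genes) and 27 lower (54.5%). Without the library cocaine 1 the count higher was 30. This count and those from DESeq2 and limma-voom have no share over all genes beside them. Stx8 was at 43.3, 38.6 and 34.9 CPM in cocaine and 33.4, 31.3 and 31.0 in yoked libraries. The groups did not touch, but the saline libraries (37.7, 44.0 and 32.9) overlapped both. Its log2 fold change was 0.30 ± 0.14 (SE) with an unadjusted p of 0.0552 and a Benjamini-Hochberg adjusted p of 0.974 in edgeR. Stx4a, a syntaxin of regulated exocytosis in many cell types, was at 46.9, 52.8 and 42 CPM in cocaine, 42.6, 43.2 and 31.6 in yoked, 46.8, 41.8 and 34.2 in saline libraries and 56.5 in the input. Groups overlapped, and the log2 fold change was 0.29 ± 0.16 (SE) with an adjusted p of 0.974 in edgeR, or 0.18 without yoked 3. Cplx1 (cocaine 633 to 778, yoked 532 to 675 CPM, overlapping) had 0.22 ± 0.13 on the log2 scale (SE) and the same adjusted p. Syt5 (121 to 149 against 105 to 120) was at 0.26 ± 0.16 with the same adjusted p in edgeR, and at 0.14 without cocaine 3. Groups did not overlap for 3 genes higher in cocaine (Stx8, Syt5 and Snap47), against 2.87% of all genes, and for Snap91 lower, 1 of 62 against 3.6%, which is 4 either way against 6.47%. TMM-scaled CPM gave 4 and 1, with Stx4a and Cplx1 added and Syt5 lost. Again no share over all genes was computed for this scaling. Snap91 was the gene whose 3 cocaine libraries lay below all 6 others, at 224 ± 10.9 CPM (SD, n = 3) against 260 ± 4.01 in saline and 251 ± 8.21 in yoked libraries. Its adjusted p in edgeR was 0.999 against saline and 0.974 against yoked libraries. The share of all genes with such a separation from both groups was not computed. Both comparisons share the cocaine libraries.

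Yoked against saline libraries gave 0 called genes of 62 in edgeR, DESeq2 and limma-voom, with 0% of all genes called in edgeR. Unadjusted p under 0.05 was reached by 1 of 62 (1.84% of all genes) in edgeR, 1 in DESeq2 and 0 in limma-voom. The median log2 fold change was -0.03 and that of all genes 0.03. There were 38 genes lower (45% of all genes) and 24 higher (55%), and without the 3 libraries numbered 3 the count higher was 33. Here too, the counts from DESeq2, limma-voom and the fit without libraries have no share over all genes beside them. Syt7 was at 126, 111 and 146 CPM in saline and 110, 102 and 81.8 in yoked libraries, against 161 in the input, and the groups did not overlap. Its log2 fold change was -0.35 ± 0.16 (SE) with an unadjusted p of 0.0477 and a Benjamini-Hochberg adjusted p of 0.999 in edgeR, and the cocaine libraries (112, 84.5 and 113) spanned both. Without saline 3 it was -0.21 (unadjusted p 0.245 in edgeR), and without the 3 libraries numbered 3 it was -0.12. Syt6 was lower in yoked libraries too (320, 274 and 280 CPM, -0.26 ± 0.14, adjusted p of 0.999 in edgeR), with no overlap. Syt9, a calcium sensor related to Syt1, had 32.4, 30.8 and 22.4 CPM in saline, 24.3, 24.4 and 19.9 in yoked, 25.4, 27.8 and 19.3 in cocaine libraries and 25 in the input. Its log2 fold change was -0.27 ± 0.17 (SE), with overlap and an adjusted p of 0.999 in edgeR. Stxbp3a had 3.52, 5.51 and 3.04 CPM in saline, 5.31, 6.45 and 4.29 in yoked, 3.95, 5.44 and 3.33 in cocaine libraries and 12.5 in the input. The difference of 0.47 ± 0.29 on the log2 scale (SE) had an adjusted p of 0.999 in edgeR, and the groups overlapped. Without saline 2 the difference was 0.74. Its highest libraries, yoked 2 and saline 2, also had the highest astrocyte marker levels (mean log2 level of 8 markers, none at 0: saline 3.10 to 4.60, cocaine 3.23 to 4.27, yoked 3.09 to 5.41), whose part was not tested. Groups did not overlap for 4 genes lower in yoked libraries (Syt7, Syt6, Rims2 and Syt12), against 4.42% of all genes, and for 0 higher, against 2.48%, which is 4 either way against 6.9%. TMM-scaled CPM gave 4 lower (Syt6, Rims1, Stx8 and Stx6) and 1 higher (Snap29). For these counts too, no share over all genes was computed.

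**Figure D4:**
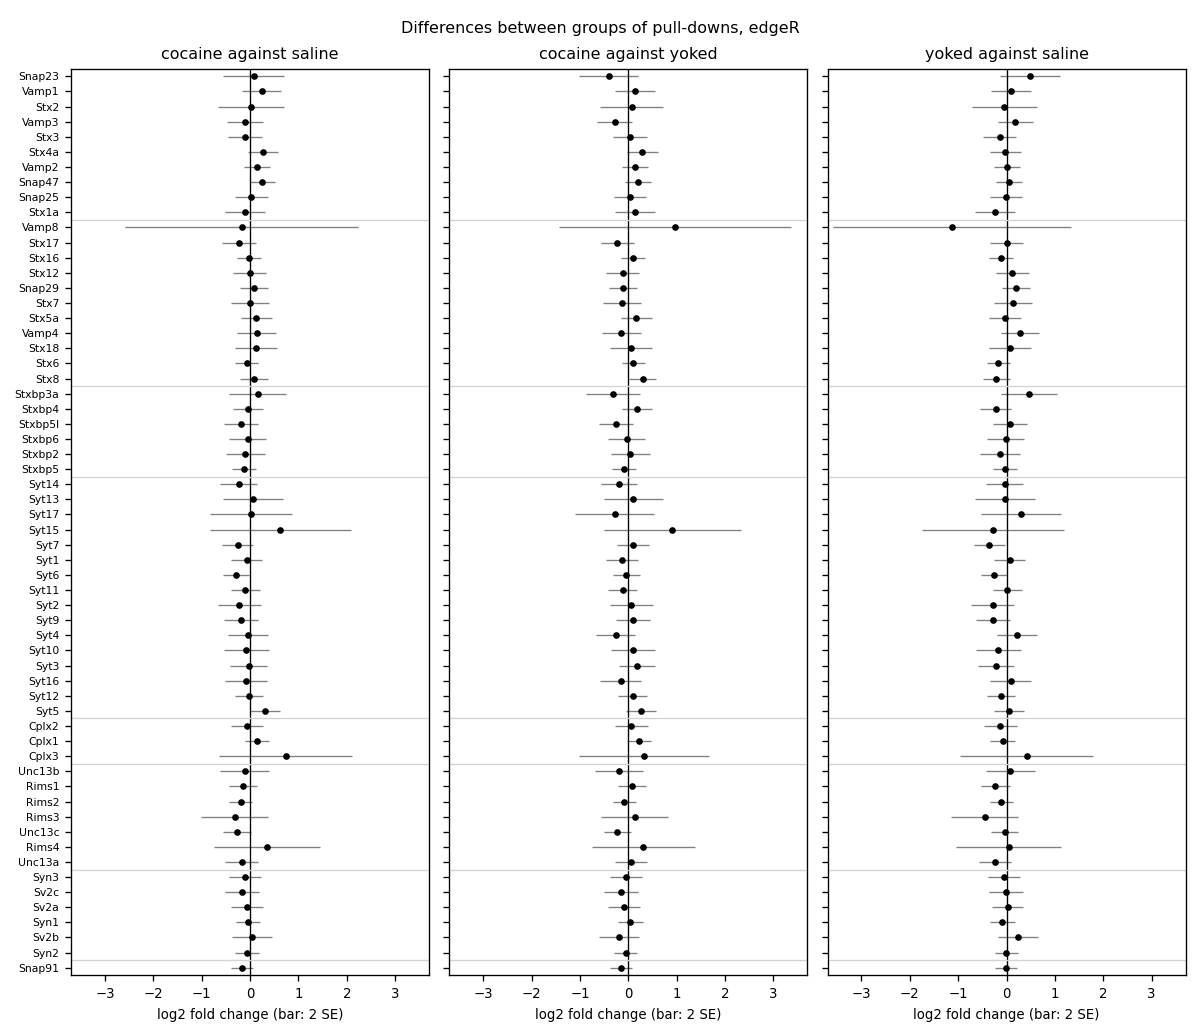
Log2 fold change of 60 of the 62 genes in each of the 3 comparisons (edgeR, 3 libraries per group), ordered as in the plot of ratios to the input, with bars of 2 SE. Most points lie near 0, and the widest bars belong to genes with few counts such as Vamp8, Syt15 and Cplx3.

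Each pair of groups shares libraries with the others, so the 3 comparisons are not independent. The precision set by 3 libraries a group can be read from intervals of 2 SE either side: in cocaine against saline these lay within 1.5-fold for 47 of 62 genes and within 2-fold for 57. In cocaine against yoked the numbers were 45 and 56, and in yoked against saline 43 and 54. For Snap25 and Vamp2 the group means differed by less than the SD of the more variable group: 8256 ± 139, 8122 ± 1057 and 7938 ± 1751 CPM for Snap25, and 1939 ± 201, 2056 ± 347 and 1889 ± 87.1 CPM for Vamp2 (saline, cocaine and yoked, SD, n = 3 each). A missing call does not show that the groups were alike.

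Single libraries stood apart within groups. Yoked 3 was the highest library for 12 and the lowest for 19 of the 62 genes, 31 in all or 50%, close to its 49.4% over all genes. Highest in yoked 3 were Snap23, Stx7, Stx12, Vamp4, Syt4, Syt16 and Sv2b among others, and lowest were Stx1a, Cplx1, Cplx2, Stxbp2 and Rims1 among others. Summed over the 70 genes, the fusion machinery took 16965 to 21313 CPM of a pull-down and 14323 CPM of the input. Without Snap25 the sums were 9943 to 12182 and 10140 CPM, so that most of the gap lay in that gene. The median CV over 9 pull-downs was 15.4%, with 13.1% in the 28 genes of 100 CPM or more and 32.6% in the 10 genes under 10 CPM.

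**Figure D5:**
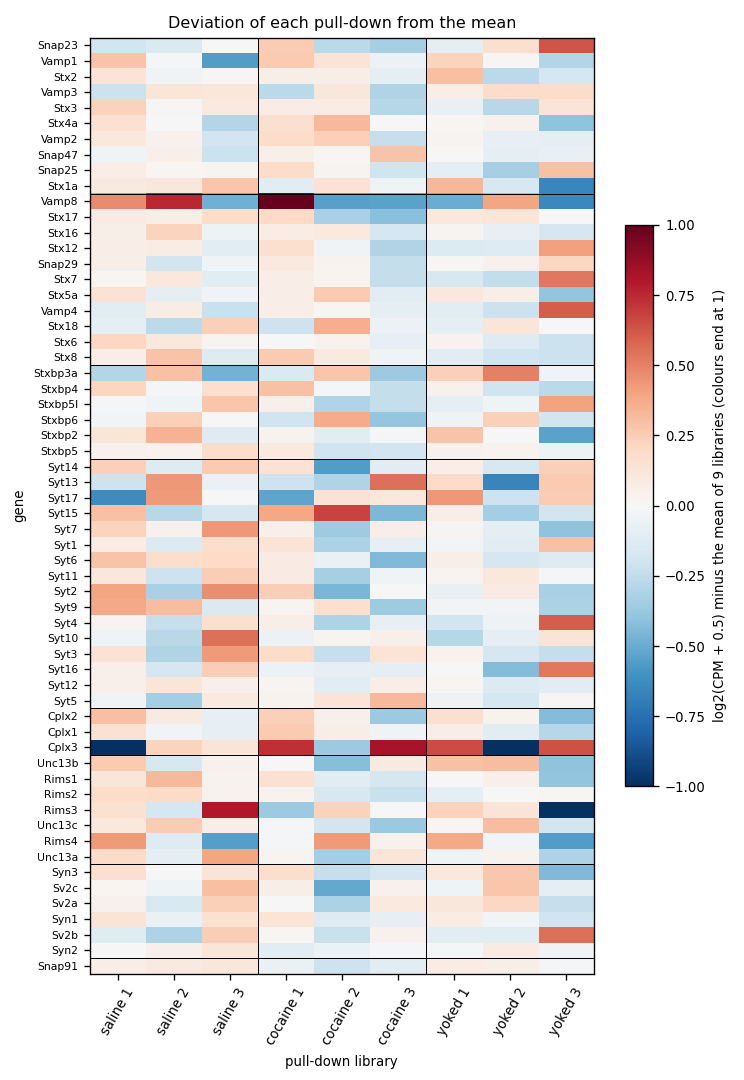
Deviation of each pull-down from the mean of the 9 on the log2(CPM + 0.5) scale, genes in rows by role and libraries in columns by group, with colours ending at 1. The column of yoked 3 holds the extreme value of 29 of the 60 genes drawn, and no group of columns has 1 colour throughout.

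Partner genes of the same cycle that the symbol rule leaves out were read from 4 lists. Of these 71 genes, 30 were above the input in each pull-down, against 27.1% of all genes, and 15 below it, against 36.6%. Their median ratio was 1.17, against 0.937 over all genes. Past 2-fold in each pull-down were 2 above and 3 below, against 3.1% and 11.8% of all genes. Factors that take spent SNARE complexes apart, with other accessory genes, had a median ratio of 1.29 over 10 genes, led by Napa (alpha-SNAP) at 2.05, Vps45 at 1.69 and Prrt2 at 1.44. The 21 active zone genes had a median of 1.12 and ranged from the vesicle GTPase genes Rab3a and Rab3b, at 2.13 and 2.06, to the giant scaffold gene Pclo, which lay 1.92-fold below. Among 16 other vesicle membrane genes (median 1.03), those furthest from the input were Slc17a6, the vesicular glutamate transporter of thalamic inputs, 6.95-fold below, Syngr2, 5.57-fold below, and Slc17a8, 4.47-fold below. Endocytosis genes (24, median 1.23) included Ap2s1 and Ap2m1, subunits of the clathrin adaptor AP2, at ratios of 3.27 and 2.44, both past 2-fold above in each pull-down, and Ston2, 3.15-fold below. No partner gene was called in any comparison by edgeR (0 of 71 in each, with 0% of all genes called). Unadjusted p under 0.05 in edgeR was reached by 1 in cocaine against saline (Slc18a3), against 2.84% of all genes. In cocaine against yoked it was reached by 2 (Ap2s1 and Cltb), against 2.58%, and in yoked against saline by 0, against 1.84%. Slc18a3 was lower in cocaine libraries, at 0.852, 0.867 and 0.187 CPM against 2.64, 23.8 and 1.58 in saline. The library saline 2 stood far above the rest, and was also highest for Chat and Slc5a7, 2 of the 7 interneuron markers. Of the other interneuron markers, Sst and Npy were highest in cocaine 3, Nos1 and Th in yoked 2 and Pvalb in saline 1.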

How the data were processed

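Ribosome-bound RNA (9 pull-downs) and input RNA (1 library) were sequenced. The authors deposited raw read counts for each gene symbol. The submitters' processing notes name STAR 2.0.0e, HTSeq and the build mm10. The sources used here give no annotation, strand setting or HTSeq version, so reads of genes overlapping on opposite strands cannot be told apart. Each file had 32531 gene entries and 6 entries naming no gene, left out of library sizes. Of uniquely aligned reads, 12.3% to 16.1% fell in no feature in pull-downs and 27.6% in the input. Rn45s (ribosomal RNA) held 10.5% to 20.5% of pull-down gene counts.

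Groups follow the labels. Under R 4.3.3, edgeR 4.0.16 (robust quasi-likelihood, TMM, filterByExpr) was run on the counts of 14680 genes in the 9 pull-downs with group as the only term, and p-values were adjusted by Benjamini-Hochberg over all genes tested, at a threshold of 0.05. The ratio to the input used CPM + 0.5 over 15438 genes tested or at 1 CPM or more in the input. Alternatives were DESeq2 1.42.0, limma 3.58.1 (voom), other scalings and filters, a replicate block, a pseudocount of 2 CPM, a 1.5-fold limit, and leaving out libraries. TMM-scaled CPM for overlap counts and leaving out the libraries numbered 3 were added after seeing the data. On simulated counts for cocaine against saline over 14680 genes, the test recovered 22% of genes changed 1.5-fold, 70% at 2-fold, 94% at 3-fold and 98% at 4-fold, with 7 false of 149 calls. The changed genes, 50 at each fold, were drawn from those with a mean above 2 CPM, and libraries were simulated independently. Recovery at lower levels, where some fusion genes lie, or with fewer changed genes or correlated libraries was not tested.

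Genes, partner and marker lists were chosen with earlier results of these data known. Named with values in every library were the 2 genes of highest mean CPM in each role, genes past 2-fold of the input, and the 4 smallest p of each comparison; some results are not reported here by gene name. Partner genes were named as the 3 furthest from the input in a list, and those at an unadjusted p under 0.05 (Slc18a3, Ap2s1 and Cltb) were chosen after their values were seen. Gene positions and promoters come from RefSeq tables (GRCm38.p6); 68 of 70 symbols matched directly and 2 (Stxbp3a and Stxbp3b) by older names. The check of whether library numbers pair the groups is given in the closing section.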

Additional observations from a re-analysis of the deposited data

How the results depend on the processing

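Every alternative kept 0 fusion genes called in each of the 3 comparisons, among them RLE size factors, no filter, DESeq2, limma-voom, a fit on the 2 groups compared, a fit without Rn45s, each of 9 fits without 1 library and a fit without the libraries numbered 3. The 4 named genes of each comparison kept their direction in 68 of 68 values, with adjusted p of 0.741 to 1 (cocaine against saline), 0.732 to 1 (cocaine against yoked) and 0.824 to 1 (yoked against saline). Leaving out single libraries moved the median log2 fold change between -0.07 and 0.01, between -0.01 and 0.05, and between -0.06 and -0.01 in these comparisons, so the signs of the first 2 are not stable. The third kept its sign in those fits, but without the libraries numbered 3 more genes were higher than lower in yoked against saline. The number past 2-fold above the input was 2 with TMM scaling (Stx8 and Syt5). It was 1 to 3 when single libraries were left out, with 3 (Stx1a, Stx8 and Syt5) without yoked 3. No share over all genes stands beside these counts, so a rise to 3 cannot be read as particular to fusion genes. At a 1.5-fold limit the number was 5 above and 11 below, 16 in all, against 8.64%, 18.9% and 27.6% of all genes. The wider limit admits more genes by construction. With a pseudocount of 2 CPM the log2 ratio was -2.06 for Snap23 and -1.21 for Stx2, both of low level. Same-numbered libraries correlated at -0.02 to 0.25 in their deviations, over 0.1 in 6 of 9 pairs, against 1 of 18 differently numbered pairs (-0.25 to 0.15). All pairs numbered 2 and 3 were over 0.1, and none of those numbered 1. The labels give no shared source and the test reported has no block, so it does not account for an effect shared by same-numbered libraries. A fit with the replicate number as a block also gave 0 called, with 2, 0 and 1 genes at an unadjusted p under 0.05. The share of all genes at that limit in the block fit is not given here. In simulated counts, 22% of 1.5-fold changes were recovered, so changes of that size can be missed at this depth and number of libraries.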
